A study of Gallus gallus with 6 samples.

Results

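Genes of the actin cytoskeleton and of smooth muscle, 10 in number, were followed here by their symbols in the annotation of an Affymetrix chicken array: ABLIM1, SGCD, TAGLN, ACTA2, CNN1, CALD1, TPM1, TPM2, MYL9 and CAV1. Of these 10 genes 9 had at least 1 probe set, a group of short probes summarized as 1 value. CNN1 had none in the annotation used here. The 9 genes held 35 of the 38439 probe sets and were 9 of the 13009 genes with a name. They were chosen with the intensities of these arrays known: ABLIM1 and SGCD were picked because they stood among the largest rises with SCA2, and the other genes were put beside them for their link to actin. The differences between the groups are therefore given for these genes as a description, and no test of them is used as evidence. Among the 35 probe sets, 7 had names ending in _a_at, 10 in _s_at and 3 in _x_at. These endings mark sets whose probes can match more than 1 transcript, and what else they read was not tested.

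The cells came from the bursa, where B cells of birds mature, of 3-week-old Line 0 chickens. Bursal cells (2000000 per culture) were laid over DF1 cells, an adhesive fibroblast line derived from chicken embryos, and were washed off after a night in medium with 4% serum at 37 °C and 5% CO2. In the control group the monolayer was Vector-DF1, and in the SCA2 group it was SCA2Flag-DF1, named for stem cell antigen 2 (SCA2) with a Flag tag. There were 3 arrays per group, each from 10 µg of total RNA, called control 1 to 3 and SCA2 1 to 3 after the titles, which call them biological replicates. Whether each array came from its own birds, and whether a DF1 line was 1 clone, is not given in the sources used here, so the p-values speak of array-to-array spread alone, part of which may be technical.

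Actin filaments slide against myosin in contractile cells and form stress fibres in fibroblasts. Smooth muscle cells carry their own actin (ACTA2) with proteins that sit along the filament and set when myosin may pull: tropomyosins (TPM1 and TPM2), caldesmon (CALD1), calponin (CNN1) and transgelin (TAGLN). The regulatory light chain MYL9 switches the myosin motor when it is phosphorylated. SGCD, ABLIM1 and CAV1 work at the edges of this system. SGCD belongs to a membrane complex that ties the cytoskeleton to the matrix, and CAV1 coats the small membrane pits called caveolae. ABLIM1 carries LIM domains and binds filaments through its villin headpiece domain. Fibroblasts express several of these genes too, and myofibroblasts are marked by ACTA2.

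Values below are log2 intensities, and differences are SCA2 minus control on the same scale. An intensity depends on the probes as well as on the RNA, so different probe sets are not read as relative amounts of RNA. Their intensities are set side by side only to number and pick probe sets, to call genes bright or dim and to sum lists. Each sum is weighted by its brightest probe sets. A log2 intensity of 4.92, under which 95% of 689 probe sets named only after sequence records lay, was used as the background mark. The median intensity per array lay between 51.2 and 53.1, and Pearson's r of log2 intensities was 0.99 to 0.995 within the control group, 0.995 to 0.997 within the SCA2 group and 0.962 to 0.98 from one group to the other. The array's own probe sets for the 5′ and 3′ ends of beta-actin differed most on control 2, by 0.96 (3′ minus 5′), against 0.20 and 0.42 on control 1 and 3 and -0.16, 0.39 and 0.03 on SCA2 1, 2 and 3. The same measure for GAPDH lay between 0.10 and 0.20 on the control arrays and between -0.12 and -0.02 on the SCA2 arrays, without overlap. For GAPDH this sign of RNA quality thus moved with the groups, while for beta-actin the groups overlapped. The part of RNA quality in the results below was not tested.

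Most of the genes were higher on the SCA2 arrays. ABLIM1 and SGCD differed most, by 4.73 and 3.22 in their brightest probe sets. CAV1, MYL9, TPM2, TAGLN and CALD1 differed by between 0.92 and 1.50, or 1.90-fold to 2.83-fold. TPM1 hardly differed in its brightest probe set (0.01), and ACTA2, the defining actin of smooth muscle, lay at background in both groups. In limma with Benjamini-Hochberg adjustment over the whole table, 21 of the 35 probe sets were called higher and 1 lower, where 18.2% of all probe sets were called higher and 17.1% lower. The groups did not overlap in 25 of the 35, with SCA2 above in 23 and below in 2, against 48.9% of all probe sets (22.9% above and 25.9% below). Taken by the brightest probe set, 7 of the 9 genes were called higher and 0 lower (26.2% and 20.8% of all named genes), and the same 7 did not overlap between groups (61.3% of all named genes). The 9 genes had a median difference of 1.01 against -0.01 over all named genes. Because these genes were chosen from this same contrast, nothing is read from these counts.

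**Figure D1:**
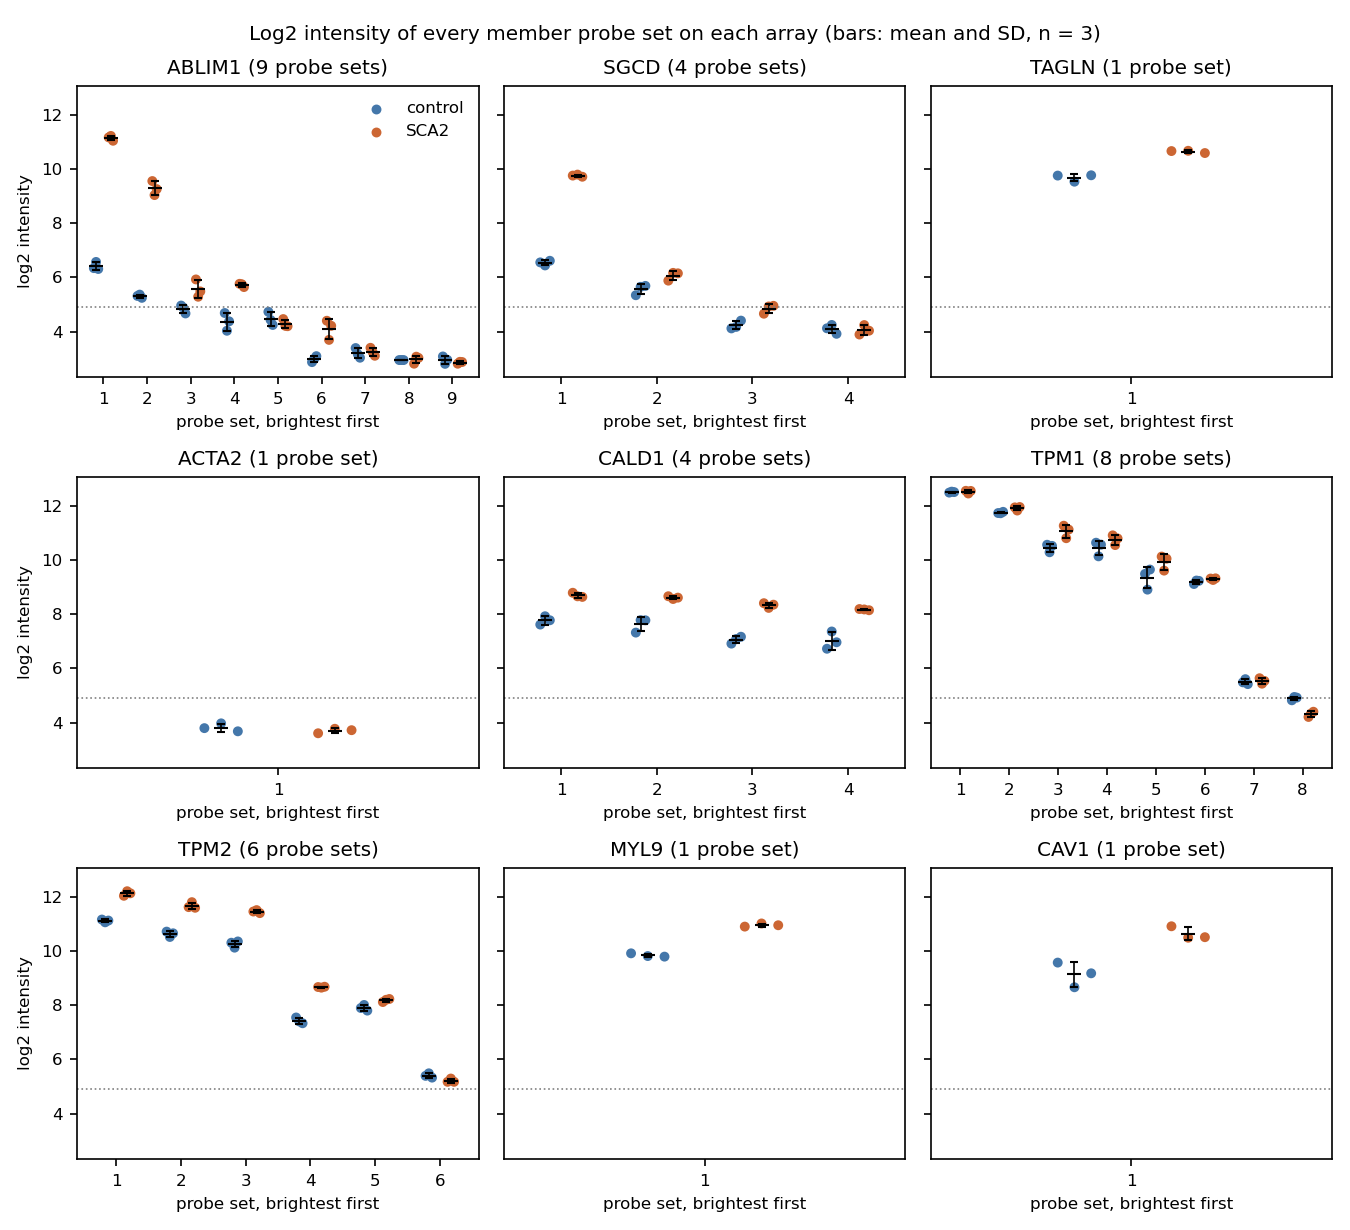
Log2 intensity of each of the 35 probe sets of the 9 genes on the 3 control arrays (blue) and the 3 SCA2 arrays (orange). Probe sets are numbered from the brightest within each gene, bars give the mean and SD of 3 arrays, and the dotted line is the background mark of 4.92. ABLIM1 sets 1 and 2 and SGCD set 1 stand far apart between groups, while ACTA2 lies under the line on all 6 arrays.

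ABLIM1, which encodes an actin-binding LIM protein, had 9 probe sets, numbered here from the brightest by the mean over the 6 arrays. Set 1 measured 6.34, 6.57 and 6.31 on the control arrays and 11.16, 11.21 and 11.04 on the SCA2 arrays. Every SCA2 array was thus far above every control array, with means of 6.41 ± 0.14 and 11.14 ± 0.09 (SD, n = 3 each) and a 26.5-fold difference. Among all 38439 probe sets this difference ranked 3 from the top, and that of set 2 ranked 6. Set 2 measured 5.32, 5.36 and 5.25 on the control arrays and 9.55, 9.03 and 9.25 on the SCA2 arrays, a difference of 3.97 (SE 0.13, 15.7-fold). Its control values lay just above the background mark.

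The other ABLIM1 probe sets did not show a change of this size. Set 4 went from 4.37 ± 0.33 to 5.72 ± 0.07 and set 3 from 4.84 ± 0.15 to 5.56 ± 0.33 (SD, n = 3 each), both with control means under the background mark. Sets 5 to 9 lay under the mark in both group means. Among these, set 6 differed by 1.12 (SE 0.18), from 2.99 ± 0.11 to 4.10 ± 0.37, without overlap between groups. The remaining 4 differed by between -0.18 and 0.05 with overlapping groups. Differences over the 9 probe sets of the gene therefore spanned 4.91, and the mean of all of them gave a gene difference of 1.30 in place of 4.73. The annotation does not say which ABLIM1 transcripts each probe set reads.

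ABLIM3, a relative of ABLIM1 that was not among the chosen genes, went the other way. Its brightest probe set went from 7.68 ± 0.11 to 7.22 ± 0.09 (SD, n = 3 each; difference -0.46, SE 0.09; limma, Benjamini-Hochberg adjusted p = 0.0064). All 6 ABLIM3 probe sets had a negative difference, and 2 of them were called. The dimmest, with differences of -0.08, -0.09 and -0.21 and overlapping groups, lay under the background mark on all 6 arrays. The dimmer called set (-0.53) had an SCA2 mean of 4.61, also under the mark.

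SGCD encodes the delta subunit of the sarcoglycan complex, which spans the membrane beside dystroglycan in muscle. Set 1 measured 6.55, 6.44 and 6.61 on the control arrays and 9.75, 9.79 and 9.71 on the SCA2 arrays. The groups lay far apart with little spread in either, at 6.54 ± 0.09 and 9.75 ± 0.04 (SD, n = 3 each), a 9.29-fold difference that ranked 17 from the top. Set 2 measured 5.34, 5.65 and 5.69 on the control arrays and 5.88, 6.17 and 6.15 on the SCA2 arrays, a difference of 0.50 (SE 0.13). In set 3 the groups were 4.23 ± 0.15 and 4.85 ± 0.16, and in set 4 they overlapped at 4.10 ± 0.16 and 4.06 ± 0.18. These 4 means were under the background mark, with SCA2 2 and SCA2 3 above it in set 3. The mean over the 4 probe sets of SGCD gave a difference of 1.07 in place of 3.22.

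By the Euclidean distance between centred log2 profiles over the 6 arrays, the named genes nearest to ABLIM1 were MXRA5 (distance 0.84), DNAH5L (0.94) and GLT8D2 (1.61). Nearest to SGCD were LOC417962 (0.07), VSTM4 (0.14) and GABRA2 (0.32). These genes differed by between 3.21 and 4.45 between the groups. ABLIM1 and SGCD were picked for their large differences, so this distance favours other genes with large differences. Nothing further is read from it. The control means of MXRA5 (4.76), DNAH5L (4.54), GLT8D2 (3.70) and GABRA2 (4.19) were under the background mark, so their differences and distances rest on values at background.

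**Figure D2:**
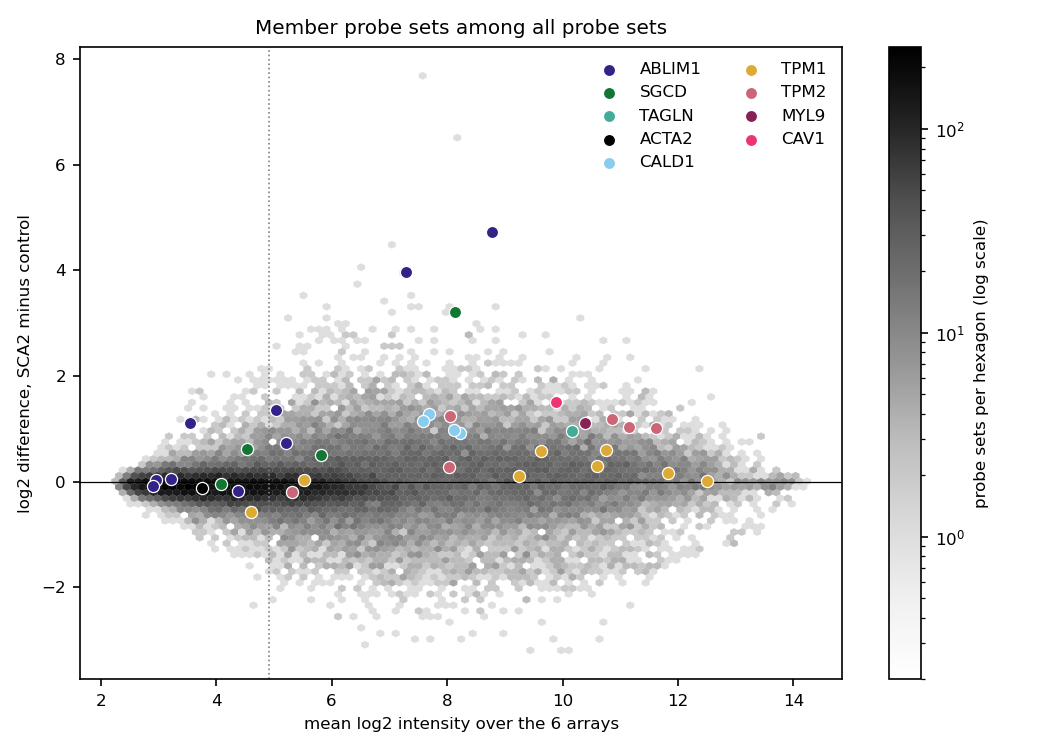
Log2 difference (SCA2 minus control) against mean log2 intensity for the 38439 probe sets (grey hexagons, darker where more probe sets fall) with the 35 probe sets of the 9 genes in colour. The dotted line is the background mark of 4.92. ABLIM1 and SGCD each have probe sets near the upper edge and others near 0, and TPM1 stays between -0.58 and 0.61.

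ACTA2, the gene of alpha smooth muscle actin, had 1 probe set. It measured 3.80, 3.97 and 3.68 on the control arrays and 3.61, 3.77 and 3.72 on the SCA2 arrays. All 6 values were under the background mark and the groups overlapped, so no level of ACTA2 and no difference (-0.12, SE 0.10) was detectable with this probe set. Of the genes under the smooth muscle label, the others that were measured are also used by other cells.

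TAGLN encodes transgelin, a calponin-like protein along actin filaments that is abundant in smooth muscle and present in fibroblasts. Its single probe set measured 9.75, 9.53 and 9.76 on the control arrays and 10.66, 10.67 and 10.58 on the SCA2 arrays. All SCA2 arrays were higher, at 10.64 ± 0.05 against 9.68 ± 0.13 (SD, n = 3 each), a difference of 0.95 (SE 0.09, 1.94-fold).

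CALD1 encodes caldesmon, which holds tropomyosin in place on the filament and exists as a long form in smooth muscle and a short form in other cells. Its 4 probe sets all showed higher SCA2 arrays with no overlap, by 0.92, 0.99, 1.27 and 1.15 from the brightest on. Set 1 measured 7.61, 7.92 and 7.77 on the control arrays and 8.79, 8.66 and 8.63 on the SCA2 arrays. In set 4 the control arrays varied more (6.72, 7.36 and 6.96) than the SCA2 arrays (8.19, 8.17 and 8.14). CALD1 was thus the gene with several probe sets whose differences were closest to each other, with a span of 0.35. Which of the forms these probe sets read is not given in the sources used here.

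The tropomyosins TPM1 and TPM2, coiled-coil proteins that lie along the actin filament, did not look alike. For TPM2, set 1 measured 11.15, 11.05 and 11.12 on the control arrays and 12.03, 12.20 and 12.12 on the SCA2 arrays, a difference of 1.01 (SE 0.08, 2.01-fold). Sets 2, 3 and 4 differed by 1.04, 1.19 and 1.24 and set 5 by 0.28 (SE 0.08), each without overlap. Set 6 was the exception, with lower values on the SCA2 arrays (5.40 ± 0.08 and 5.21 ± 0.07; SD, n = 3 each) close to background. The mean over the 6 probe sets was 0.76.

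TPM1 set 1 measured 12.48, 12.51 and 12.50 on the control arrays and 12.55, 12.45 and 12.54 on the SCA2 arrays. The groups overlapped, at 12.50 ± 0.02 and 12.51 ± 0.06 (SD, n = 3 each). Sets 2 and 6 differed by 0.16 (SE 0.07) and 0.11 (SE 0.07), and set 7, near background, by 0.03. Sets 3, 4 and 5, which share a record number in their probe set names, differed by 0.61, 0.31 and 0.58 (SE 0.14, 0.16 and 0.22), and of these only the first did not overlap between groups. Set 8 went from 4.90 ± 0.06 to 4.31 ± 0.10, downward and under the background mark. Of the 8 probe sets of TPM1, 1 was called higher and 1 lower.

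TPM1 set 3 ranked the arrays within each group as the 5′ probe set of beta-actin did. That actin probe set measured 13.54, 12.78 and 13.24 on the control arrays and 13.80, 13.29 and 13.69 on the SCA2 arrays, so that array 1 was highest and array 2 lowest in both groups. TPM1 set 3 had 10.56, 10.28 and 10.52 on the control arrays and 11.26, 10.80 and 11.12 on the SCA2 arrays, in the same order. CAV1 had this order too, but its values on SCA2 2 and SCA2 3 were nearly equal. This order held in 3 of the 35 probe sets (8.57%) and in 8.6% of all probe sets. Its part in the differences of TPM1 and CAV1 was not tested.

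**Figure D3:**
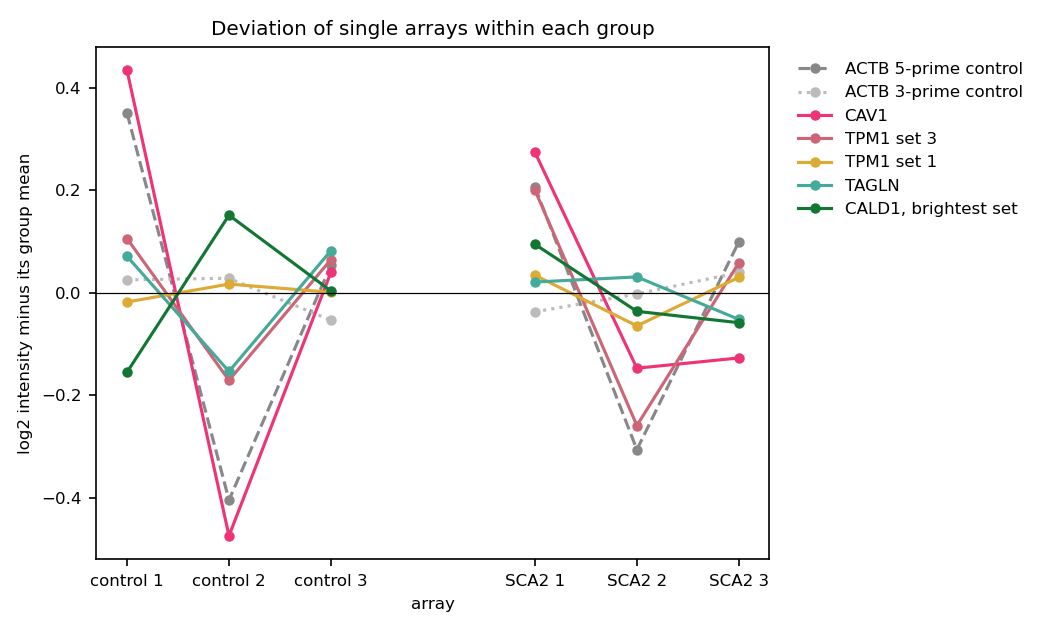
Log2 intensity of single probe sets on each array, as the deviation from the mean of its group. TPM1 set 3 dips on control 2 and on SCA2 2 as the 5′ beta-actin control does, CAV1 dips on control 2 and lies under its mean on both SCA2 2 and SCA2 3, while TPM1 set 1 and the 3′ beta-actin control stay within 0.1 of their group means and, among the control arrays, TAGLN is lowest and CALD1 highest on control 2.

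MYL9 encodes the regulatory light chain of smooth muscle and non-muscle myosin. Its single probe set measured 9.91, 9.81 and 9.79 on the control arrays and 10.89, 11.01 and 10.94 on the SCA2 arrays. The groups were well apart, at 9.83 ± 0.07 and 10.95 ± 0.06 (SD, n = 3 each), a difference of 1.11 (SE 0.08, 2.17-fold).

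CAV1 encodes caveolin-1, the main coat protein of caveolae. It measured 9.57, 8.66 and 9.17 on the control arrays and 10.91, 10.48 and 10.50 on the SCA2 arrays. The groups did not overlap, though the control arrays spread more (9.13 ± 0.46) than the SCA2 arrays (10.63 ± 0.24; SD, n = 3 each). The difference was 1.50 (SE 0.23, 2.83-fold) with all arrays, 1.26 without control 2 and 1.72 without control 1.

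Genes related to these 9 by function, family or tissue were taken from 7 lists. The lists include striated muscle markers, of which 0 of 22 measured were called higher, and the shares below count them. Of 147 listed genes 117 had a probe set, and by their brightest one 34 (29.1%) were called higher and 18 (15.4%) lower in limma with Benjamini-Hochberg adjustment. Over all 13009 named genes the shares were 26.2% and 20.8%, so the related genes as a whole stood near the background. Their median difference was 0.00, against -0.01 over all named genes. The number called lower was 11 without SCA2 1 and 11 without SCA2 3.

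Among contractile smooth muscle genes, 8 of 25 measured genes rose (32%) and 4 fell (16%), with a median of 0.01. The shares of all named genes were 26.2% and 20.8%. The summed intensity of this list lay between 17654 and 18543 on the control arrays and between 23233 and 23759 on the SCA2 arrays. LPP, a LIM protein of focal adhesions, rose by 1.15 (SE 0.10). CSRP1, a LIM protein of smooth muscle and fibroblasts, rose by 0.84 (SE 0.07), and for both the Benjamini-Hochberg adjusted p in limma was 1.6e-04. MYL6, an essential light chain of myosin, rose by 0.88 (SE 0.10; adjusted p = 6.4e-04 in limma). TNS1, an adhesion protein, rose by 0.65 (SE 0.10; adjusted p = 0.0017 in limma), and 3 of its 4 probe sets had a positive difference. MYH11, the myosin heavy chain of smooth muscle, measured 5.54 ± 0.18 and 5.83 ± 0.08 (SD, n = 3 each) with overlapping groups (difference 0.29), and did not pass the test. ACTG2, the actin of visceral smooth muscle, fell from 5.35 ± 0.06 to 5.07 ± 0.07 (limma, Benjamini-Hochberg adjusted p = 0.0245). Its values on the SCA2 arrays (4.99, 5.10 and 5.12) lay just above the background mark.

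DES, the intermediate filament protein desmin of muscle, fell from 5.63 ± 0.16 to 5.30 ± 0.09 (SD, n = 3 each; limma, Benjamini-Hochberg adjusted p = 0.0396). This call was lost in 8 of 11 other settings, with adjusted p-values between 0.0193 and 0.134. The dimmer probe set of DES was also called lower (-0.51, SE 0.09; adjusted p = 0.0041 in limma), with an SCA2 mean under the background mark. MYOCD, a coactivator that drives smooth muscle genes in mammals, had a difference of -0.10 in its brightest probe set that did not pass the test, and its other probe set was called lower (-0.34, SE 0.07). MYLK, the kinase that phosphorylates the light chain MYL9, measured 4.59, 7.12 and 6.04 on the control arrays and 4.66, 3.71 and 6.26 on the SCA2 arrays. This spread was larger than the difference between the groups (-1.04, not called). Control 2 was highest among the control arrays and SCA2 3 among the SCA2 arrays, which was also true of the summed epithelial and macrophage markers. How many of all probe sets had this order was not counted, and its part in the values of MYLK was not tested.

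Close relatives of the 9 genes were divided. Of 22 measured, 9 rose (40.9%, against 26.2% of all named genes) and 4 fell (18.2%, against 20.8%), with a median of 0.10. MYL10, a myosin light chain gene, rose most (difference 2.41, SE 0.09; limma, Benjamini-Hochberg adjusted p = 1.4e-05). It measured 5.13, 4.98 and 4.90 on the control arrays and 7.43, 7.46 and 7.34 on the SCA2 arrays. The control values lay close to the background mark, with control 3 under it. CNN2 and CNN3, the calponins of non-muscle cells, rose by 0.48 (SE 0.07) and 0.30 (SE 0.07), with adjusted p-values of 0.0019 and 0.0146 in limma. A dimmer probe set of CNN3 rose by 1.28 (SE 0.25). Within both groups that probe set ranked the arrays as the 5′ probe set of beta-actin did, with 9.99, 9.04 and 9.69 on the control arrays. The part of this order in its difference was not tested. The cytoplasmic actins were bright on all arrays, and in their brightest probe sets ACTB (-0.02, SE 0.07) and ACTG1 (-0.12, SE 0.07) did not pass the test. Other probe sets of these actins were called higher, 2 of 4 for ACTB (0.38 and 0.40) and 1 of 2 for ACTG1 (0.63). ACTA1, the actin of skeletal muscle, fell from 5.70 ± 0.15 to 5.09 ± 0.11 (SD, n = 3 each; limma, Benjamini-Hochberg adjusted p = 0.0033). Its values on the SCA2 arrays (5.21, 5.07 and 5.01) lay just above the background mark. TPM3 was called in both directions. Its brightest probe set gave 0.39 (limma, Benjamini-Hochberg adjusted p = 0.0055). The next gave -0.39 (adjusted p = 0.0492 in limma, just under the threshold), with 8.35, 8.80 and 8.39 on the control arrays.

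Partners of SGCD in the sarcoglycan and dystrophin complex showed 4 of 13 genes higher (30.8%) and 2 lower (15.4%), with a median of -0.11. These shares were near those of all named genes (26.2% and 20.8%). SGCE, the epsilon subunit found outside muscle as well, rose by 1.84 (SE 0.08; limma, Benjamini-Hochberg adjusted p = 2.3e-05), from 8.12, 7.99 and 8.14 on the control arrays to 9.88, 9.97 and 9.91 on the SCA2 arrays. A second probe set of SGCE gave 1.58, and the other 4 lay near or under background with no call. SGCB, the beta subunit, rose by 0.93 (SE 0.09; limma, Benjamini-Hochberg adjusted p = 2.7e-04). DAG1, the dystroglycan gene, rose by 0.88 (SE 0.13; adjusted p = 0.0021 in limma) in its brightest probe set and in 2 others, while 1 of its 4 probe sets was called lower (-0.30). SNTB2, a syntrophin that binds dystrophin, rose by 1.12 (SE 0.14; limma, Benjamini-Hochberg adjusted p = 9.2e-04).

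DMD, the dystrophin gene, lay at or under background (4.82 ± 0.49 and 4.63 ± 0.16; SD, n = 3 each) and was not called. SNTB1, another syntrophin, and DTNB, a dystrobrevin, were the members of this list that fell, with differences of -1.52 (SE 0.35) and -0.49 (SE 0.09). SNTB1 was highest on control 2 (9.97) and SCA2 3 (8.46), as MYLK was, and the part of this order in its difference was not tested.

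Of caveola genes 3 of 8 had a probe set. CAV2, the partner of CAV1 in the caveolar coat, rose by 1.03 (SE 0.11; limma, Benjamini-Hochberg adjusted p = 3.6e-04), from 11.05 ± 0.19 to 12.08 ± 0.03 (SD, n = 3 each). PACSIN2, which bends membranes, fell by 0.28 on the log2 scale (SE 0.08; adjusted p = 0.026 in limma, and 0.0021 to 0.0935 over 11 other settings, with the call lost in 4). Of the 2 probe sets of PACSIN2 only 1 had a negative difference, and 0 were called higher. CAV3, the caveolin of muscle, lay at background (2.87 ± 0.08 and 2.97 ± 0.08).

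Serum response factor (SRF) with its cofactors switches on many genes of actin and of smooth muscle. In this list of SRF, its cofactors and actin-linked targets, 13 of 19 genes had a probe set. The cofactors MRTFA and MRTFB were among those without one. Of the 13 genes, 3 rose (23.1%) and 2 fell (15.4%), with a median of -0.05. The shares of all named genes were 26.2% and 20.8%. SRF itself fell by 0.37 on the log2 scale (SE 0.07; limma, Benjamini-Hochberg adjusted p = 0.0062). VCL, the gene of vinculin at adhesion sites, rose by 0.70 (SE 0.09; limma, Benjamini-Hochberg adjusted p = 9.7e-04). ANKRD1 rose by 0.35 (SE 0.08; adjusted p = 0.0111 in limma). Of its 3 probe sets 2 had a positive difference, and 0 were called lower.

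Among genes of actin filament binding and adhesion, 17 of 47 rose (36.2%) and 4 fell (8.51%), with a median of 0.11. The shares of all named genes were 26.2% and 20.8%. DIAPH3, a formin that elongates filaments, rose by 1.53 (SE 0.11), and CTTN, the gene of cortactin, by 1.29 (SE 0.10). LIMA1, which bundles filaments, rose by 0.86 (SE 0.07). The adjusted p-values of DIAPH3, CTTN and LIMA1 in limma lay between 9.0e-05 and 1.3e-04. LCP1, the plastin of white blood cells, fell by 1.59 on the log2 scale (SE 0.09; limma, Benjamini-Hochberg adjusted p = 3.9e-05), from 12.59 ± 0.05 to 10.99 ± 0.14 (SD, n = 3 each).

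Striated muscle uses TPM1, TPM2 and SGCD as well, so its markers were read too. Of 22 measured, 0 rose and 5 fell, in limma at an adjusted p of 0.05, and 6 had an unadjusted p under that level. Of all named genes 26.2% were called higher and 20.8% lower, so the share that fell here (22.7%) was near the background. The control mean of 10 of the 22 and the SCA2 mean of 13 lay under the background mark. TNNT3, a troponin of fast skeletal muscle, fell by 0.53 on the log2 scale (SE 0.07; limma, Benjamini-Hochberg adjusted p = 0.0011), from 6.66 ± 0.05 to 6.13 ± 0.03 (SD, n = 3 each). The summed intensity of this list lay between 919 and 992 on the control arrays and between 780 and 880 on the SCA2 arrays.

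**Figure D4:**
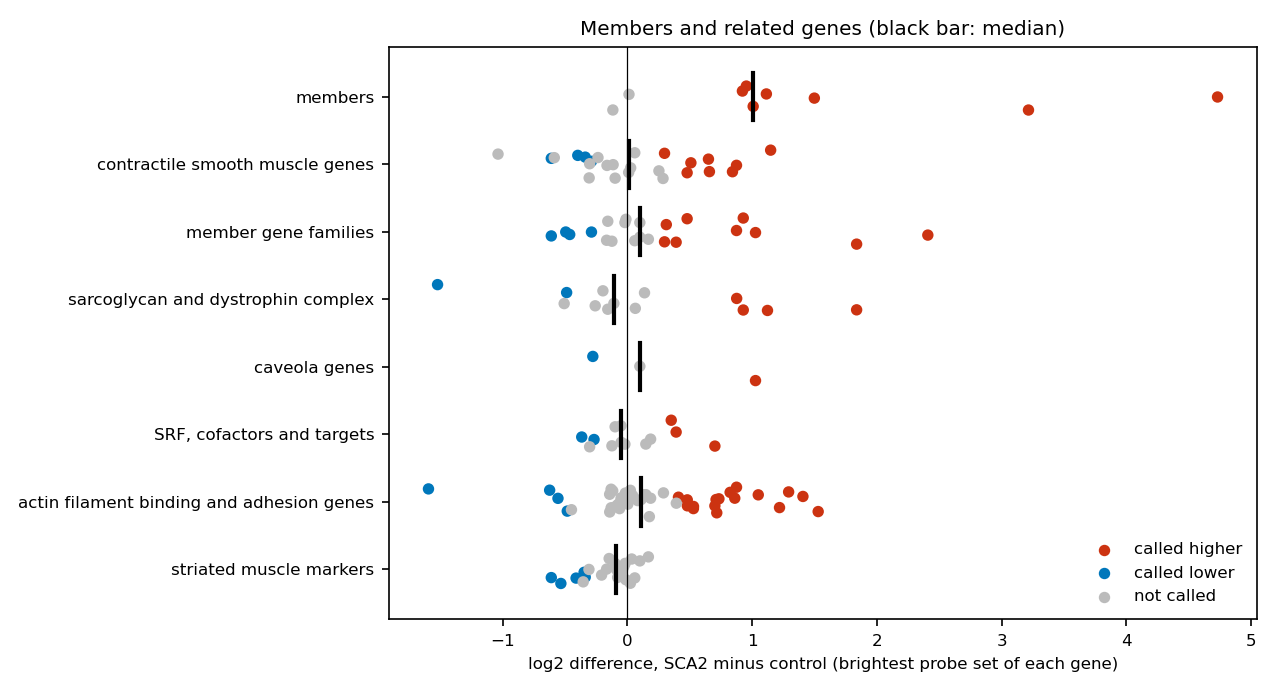
Log2 difference (SCA2 minus control) of the brightest probe set of each gene, for the 9 members and the 7 lists of related genes, with jitter on the vertical axis only. Red and blue points were called higher and lower in limma at an adjusted p of 0.05, grey points were not, and black bars are medians. The median of the members is 1.01, and those of the lists lie between -0.11 and 0.11.

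Markers of cell types also differed between the groups. B cell markers such as CD79B, a chain of the B cell receptor complex, were bright on the control arrays (12.75 ± 0.04). Fibroblast markers such as COL1A1 (12.29) and VIM (12.84) were bright there too. The markers thus do not show how much of a harvest was B cells. On the SCA2 arrays 9 of 11 B cell markers fell (81.8%, against 20.8% of all named genes) and 0 rose. The 2 not called were PAX5 (6.34 on the control arrays, difference -0.16, overlapping groups) and CD40 (difference 0.30, without overlap). The summed intensity of the 11 markers went from between 23194 and 23280 to between 8460 and 9783. In these mixed harvests, fewer cells of a type and less RNA per cell cannot be told apart. Most markers of T and NK cells (9 of 10 lower, 90%), macrophages (8 of 10, 80%) and epithelium (6 of 7, 85.7%) fell too.

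Of 15 fibroblast markers measured, 11 rose (73.3%, against 26.2% of all named genes) and 2 fell (13.3%, against 20.8%). Their summed intensity lay between 23301 and 24995 on the control arrays and between 44095 and 44674 on the SCA2 arrays. The summed intensity of the 9 actin-linked and smooth muscle genes went from between 10452 and 10955 to between 18720 and 19196. Those 9 genes were chosen from this contrast, so nothing is read from their sum beside that of the markers. Their brightest probe set, TPM1 set 1, hardly differed (12.50 and 12.51). Of the fibroblast markers PDGFRA alone had both group means under the background mark (4.86 and 4.34), with control 2 and control 3 above it, and DCN, THY1 and COL1A1 were bright in both. The 2 that fell were POSTN, from 11.64 to 10.02 (difference -1.62), and FAP, from 5.85 to 5.00 (-0.85). COL3A1 was bright in both groups and was not called (10.93 and 11.01). Among 7 pericyte markers 3 rose (42.9%) and 2 fell (28.6%), with sums between 1582 and 1672 and between 3507 and 3977. ABCC9, KCNJ8 and ANPEP had both group means under the mark, with KCNJ8 above it on control 2 (5.55). Those that rose were CSPG4 (1.54), PDGFRB (1.35) and MCAM (1.00), and those that fell were RGS5 (-0.55) and ANPEP (-0.47). CSPG4 (9.60 and 11.14) and PDGFRB (8.85 and 10.19) had the highest intensities of the pericyte list in both groups, so they weighed most in its sums. PDGFRB was also on the fibroblast list, and the median difference of the pericyte markers was 0.29.

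Of 9 endothelial markers 2 rose (22.2%, against 26.2% of all named genes) and 1 fell (11.1%, against 20.8%), with a median difference of -0.26. Their sums lay between 1144 and 1229 on the control arrays and between 2079 and 2166 on the SCA2 arrays, but the mean log2 level of the 9 markers, relative to the control mean, was -0.05, -0.05 and 0.08 on SCA2 1, 2 and 3. CDH5, the cadherin of endothelial junctions, rose by 1.63 and CLDN5 by 0.56, while ESAM fell (-0.29). CDH5 had the highest intensities of this list in both groups (8.91 and 10.54), so it weighed most in the sums. PECAM1 (-0.62), VWF (-0.56) and KDR (-0.19) did not pass the test, though their SCA2 arrays all lay below their control arrays. TEK lay under the background mark on all 6 arrays. The part that any of these cell types, or RNA of the monolayer, had in the differences of the 9 genes was not tested.

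**Figure D5:**
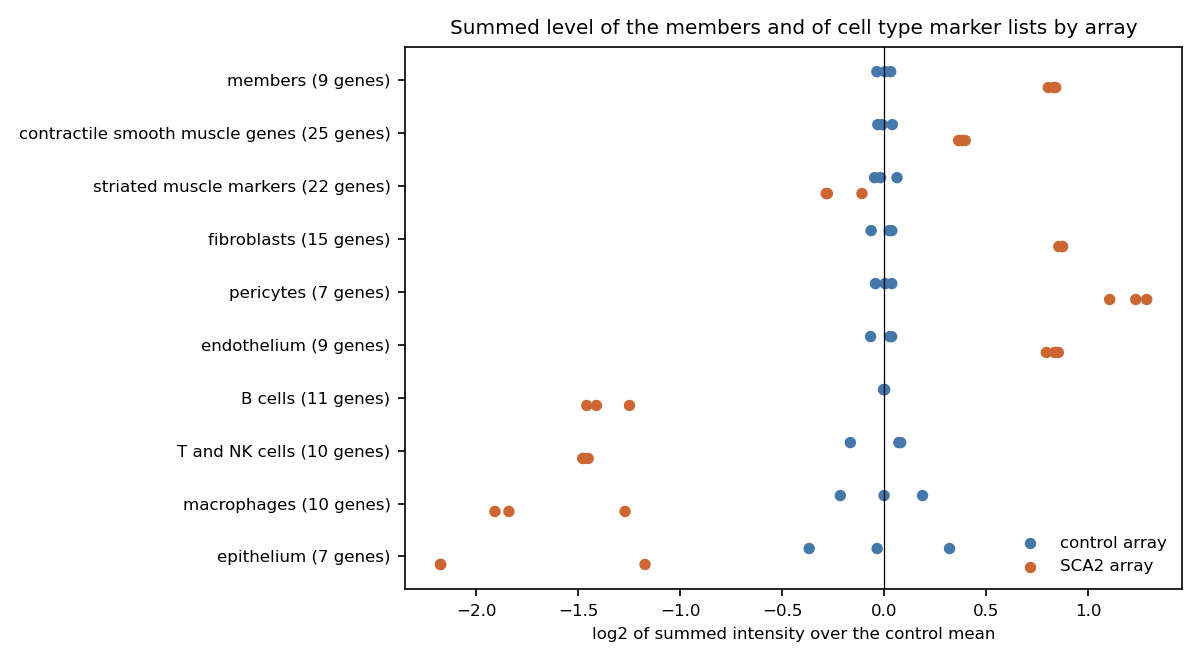
Log2 ratio of the summed intensity of each gene list on an array to its mean on the control arrays, for the members, 2 lists of muscle genes and 7 lists of cell type markers. Each point is 1 array (blue control, orange SCA2). The sums of the members, contractile smooth muscle, fibroblast, pericyte and endothelial lists are higher on the 3 SCA2 arrays. The median difference is nevertheless 0.01 for the contractile smooth muscle genes, 0.29 for the 7 pericyte markers and -0.26 for the 9 endothelial markers. The sums of striated muscle, B cells, T and NK cells, macrophages and epithelium are lower.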

How the data were processed

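Total RNA of 3 control and 3 SCA2 cultures was measured on 1-colour arrays. The deposited intensities, 1 per probe set and array, were made by the authors with RMA, per the submitters' processing notes, on a linear scale (4.28 to 19809), and their log2 was taken here. The sources used here give no version or settings. Of 38535 probe sets, 96 array controls were left out. Symbols came from the platform annotation, updated by gene identifier through RefSeq's gene table: 27168 probe sets had 1, 177 several and 11094 none, and genes were named from the first kind only. A linear model with a term for group was fitted in limma 3.58.1 (R 4.3.3; lmFit and eBayes, defaults), with Benjamini-Hochberg adjustment over 38439 probe sets and a threshold of 0.05. SE are moderated. Figures used Python 3.11.15 and matplotlib 3.10.9. The fit was tested on simulated data.

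The members and lists were chosen with earlier results of these data known. Named were all members, up to 4 called genes of smallest p per related list, relatives of members that were not called, and 3 genes nearest to ABLIM1 and to SGCD. ABLIM3, ACTG2, CNN2, CNN3, MYLK, MYOCD, MYH11, DMD, SNTB1, DTNB and the markers were named after their values were seen. The alternatives tried were a block for the replicate number, other normalizations, a filter on dim probe sets, a variance trend, array weights, a stricter threshold, the mean of a gene's probe sets and leaving out each array. The labels give no batch. No sequences are printed, since no sequence tables were used here.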

Additional observations from a re-analysis of the deposited data

How the results depend on the processing

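The 34 related genes called higher numbered between 29 and 37 over 14 alternatives, and the 18 called lower between 8 and 23. At an adjusted p of 0.01 there were 8 lower, and 8381 of all probe sets were called in place of 13557. Leaving out each array in turn gave between 11 and 15 related genes lower, 31 and 34 higher, and 9875 and 13080 calls over all probe sets. The median difference over the 9 members (1.01) lay between 0.968 and 1.05 with an array left out and between 0.925 and 1.07 under the other settings. Of the 22 called member probe sets, between 0 and 2 lost their call in each of 11 refits and 0 changed sign. Those that lost it were TPM2 set 5 in 7 refits and SGCD set 2 without SCA2 2 or SCA2 3. At an adjusted p of 0.01, which was not among these refits, TPM2 set 5, SGCD set 2, ABLIM1 set 3 and TPM1 set 3 were not called. With the replicate number as a block, 36 related genes were higher, 19 lower and 23 member probe sets called. The numbers did not pair the arrays clearly: deviations of same-numbered arrays from their group means correlated with r of 0.41, 0.12 and 0.04, and control 2 correlated best with SCA2 3 (0.33). After a second quantile normalization the difference of TPM1 set 1 was -0.05 in place of 0.01, and that of SGCD set 4 was 0.04 in place of -0.04. Neither was called. Means over a gene's probe sets gave lower values than the brightest one for ABLIM1, SGCD and TPM2, and higher ones for TPM1 (0.15 against 0.01) and CALD1 (1.08 against 0.92). The number of arrays and the background mark limit what can be seen for ACTA2 and for the dim probe sets of ABLIM1, SGCD and TPM1.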
